A study of Mus musculus with 5 samples.

Results

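The 10 genes described here encode proteins of the cardiac sarcomere, the contractile unit of heart muscle, or proteins bound to it. They were taken by name (Actc1, Tnnt2, Myl3, Myl4, Myh6, Myh7, Actn2, Tnni1, Csrp3 and Ankrd1), and all 10 had a locus of their own among the 12375 named loci and 14053 loci in all. Their levels were followed in 5 poly(A) RNA libraries of C57BL/6J mouse embryos, 1 library per tissue. At embryonic day 8.5 (E8.5) these were foregut and medial foregut, and at E10.5 they were liver and the ventral and dorsal pancreas. No treatment or mutation is named in the labels, and the sources used here do not give how each tissue was isolated or from how many embryos. Values are FPKM, fragments per 1000 bases of transcript per 1000000 mapped fragments, and 5 values in a row follow the order foregut, medial foregut, liver, ventral pancreas, dorsal pancreas. With 1 library per tissue there was no replicate error, no test was run, and every value describes these libraries alone.

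A sarcomere is built from thin filaments of actin, thick filaments of myosin, and Z-discs that anchor the thin filaments. Calcium binding to troponin on the thin filament frees actin for the myosin heads, and the myosin light chains tune that cycle. In the mouse embryo the heart tube forms just ventral to the foregut and starts to beat at about the stage of the earlier libraries. The liver bud later grows into the septum transversum beside the veins that enter the heart. The genes therefore serve as markers of heart muscle next to the endoderm that gives liver and pancreas. In bulk tissue, fewer cells of a type and less RNA per cell cannot be told apart.

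All 10 genes were highest in medial foregut and next highest in foregut. Liver came next for 9 of them, and the pancreatic libraries were lowest for the same 9, while Myl3 was higher in ventral pancreas than in liver. The summed FPKM of the 10 genes was 4473 and 7501 in the E8.5 libraries, 409.9 in liver, and 23.7 and 9.09 in the pancreatic ones. As a share of the summed FPKM of all loci these were 0.980%, 1.48%, 0.0815%, 0.00501% and 0.00208%. All 10 reached 5 FPKM in each E8.5 library, 7 did in liver, and 1 did in each pancreatic library, Myh7 in ventral and Tnni1 in dorsal pancreas. Of all named loci, 61.2% reached 5 FPKM in liver, so the count of 7 there does not set these genes apart. For the ventral pancreatic library that share was 67.9%, and for the dorsal one 66.9%. It was 64.0% and 63.6% at E8.5. At 1 FPKM, liver held 8 of the genes, ventral pancreas 5 and dorsal pancreas 1.

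**Figure D1:**
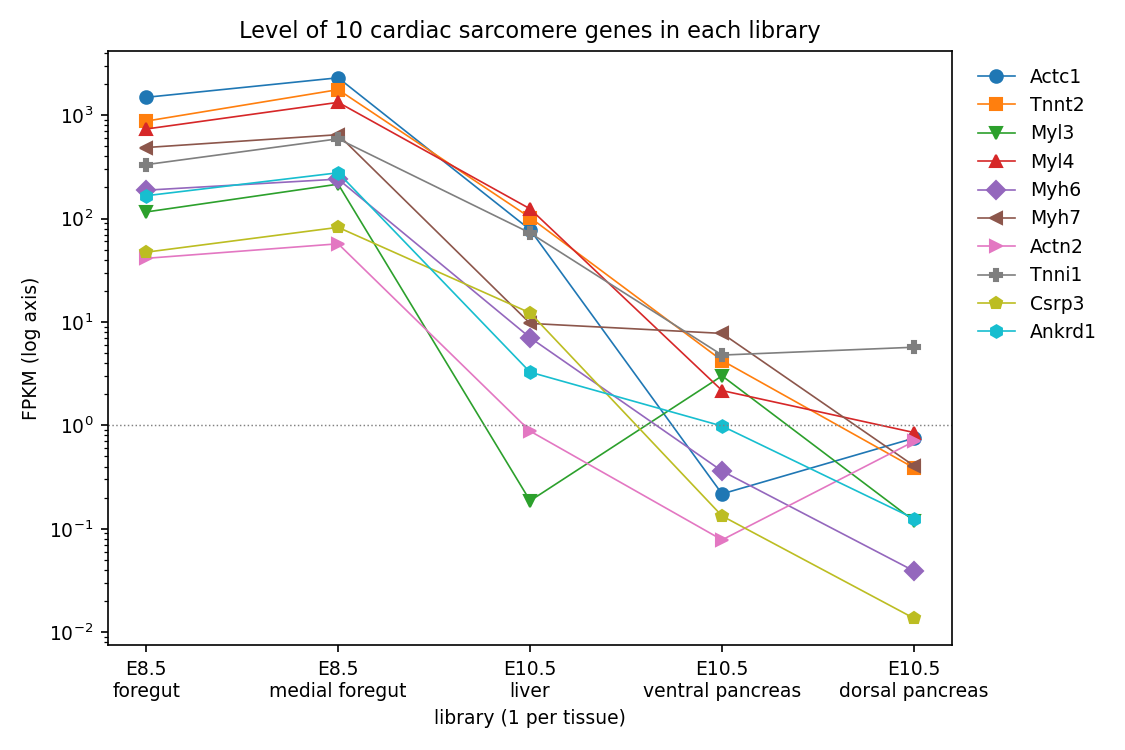
FPKM of each of the 10 genes (log axis) in the 5 libraries, 1 library per tissue with no error bars; lines only join the points of a gene, and the dotted line marks 1 FPKM. All 10 genes lie at 41.2 FPKM or above in both E8.5 libraries, spread from 0.186 to 124 FPKM in liver, and lie at or below 7.75 FPKM in the pancreatic libraries.

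Markers of the labelled tissues were read beside the set. All 8 of 8 foregut endoderm markers, a list added after the values were seen, reached 5 FPKM in both E8.5 libraries. So did 64.0% of named loci in foregut and 63.6% in medial foregut. At E10.5 between 61.2% and 67.9% of named loci reached it, as did 6 of the 8 markers in each library. Among them Epcam, an epithelial adhesion protein, stood at 45.6, 46.5, 28.4, 343 and 163 FPKM, and Foxa2, a transcription factor of endoderm, at 18.2, 12.4, 24.0, 45.7 and 33.1. Albumin (Alb) was at 1051 FPKM in liver and 0.226 or lower at E8.5, but it also stood at 97.0 in ventral pancreas. By the size rule given below, 5 of 8 hepatic markers were called higher in ventral than in dorsal pancreas (0.913% of named loci). Liver was called higher than ventral pancreas for 5 of the 8 (1.24%). The part of liver cells in the ventral pancreas library was not tested. Pdx1, which marks the pancreatic buds, was at 39.2 and 40.9 in ventral and dorsal pancreas and below 1 in the rest. Endoderm markers were thus present in the E8.5 libraries, and several sarcomere genes stood far above them there. The endoderm list cannot check the foregut labels, since it was chosen with the values known and Epcam and Foxa2 were highest in ventral pancreas. Actc1 was the gene with the 4th highest FPKM of all 12375 named loci in medial foregut, and 5 of the 10 genes were among the top 100 of that library.

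The 2 highest members at E8.5, Actc1 and Tnnt2, encode thin filament proteins. Actc1, which encodes cardiac alpha-actin (chromosome 2, 113873014 to 113878836 in mm9), stood at 1487 FPKM in foregut and 2297 in medial foregut, then 77.9 in liver, with 0.217 and 0.752 in the ventral and dorsal pancreatic libraries. Both E8.5 libraries were high, liver was 29.5 times below medial foregut, and neither pancreatic library reached 1 FPKM. Tnnt2, the cardiac form of troponin T, which ties troponin to tropomyosin (chromosome 1, 137732249 to 137748826), stood at 875, 1764, 102, 4.23 and 0.388 FPKM in the same order. Its liver level was 24.1 times that of ventral pancreas, and dorsal pancreas was under 1 FPKM. Tnni1, the slow skeletal form of troponin I, which the embryonic heart uses before the cardiac form (chromosome 1, 137695729 to 137707542), stood at 332, 590.4, 72.5, 4.78 and 5.70 FPKM. It was the one member that stayed above 1 FPKM in dorsal pancreas, where it made up 62.7% of the summed level of the 10 genes.

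The thick filament genes spanned a wide range outside E8.5. Myh7, the beta myosin heavy chain that the mouse heart uses mainly before birth (chromosome 14, 55589520 to 55614930), stood at 486, 647, 9.68, 7.75 and 0.406 FPKM. Liver and ventral pancreas thus differed by 1.25 times for Myh7. Myh6, the alpha heavy chain of atria and of the adult mouse heart, lies beside it (chromosome 14, 55554728 to 55585491) and stood at 188, 241, 7.05, 0.362 and 0.0391 FPKM. For Myh6, liver was above 5 FPKM and ventral pancreas under 1 FPKM. The FPKM ratio of Myh6 to Myh7 was 0.387 in foregut, 0.372 in medial foregut and 0.728 in liver, and Myh6 was under 1 FPKM in both pancreatic libraries, so no ratio is given there. Of the 100-base windows of the longest Myh6 transcript, 11.4% occur unchanged in Myh7, so reads there cannot be assigned to either gene by sequence and the split between them is uncertain.

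Myl4, the essential light chain of atrial and embryonic muscle (chromosome 11, 104438442 to 104448513), stood at 734, 1329, 124, 2.17 and 0.852 FPKM. It was the highest of the 10 genes in liver. Its locus covers 22.3% of the span annotated for the gene, and 101% of the span of the closest protein-coding transcript. Myl3, the essential light chain of ventricular and slow skeletal muscle (chromosome 9, 110666059 to 110689947), stood at 116, 215, 0.186, 3.01 and 0.119 FPKM. Myl3 was lowest of the 10 in liver, at under 1 FPKM, where ventral pancreas was above 1 FPKM. The Myl4 to Myl3 ratio was 6.34 in foregut, 6.18 in medial foregut and 0.721 in ventral pancreas, with Myl3 under 1 FPKM in the other two libraries.

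Among the Z-disc genes, Actn2, which encodes the alpha-actinin that crosslinks thin filaments (chromosome 13, 12361589 to 12433012), was the least abundant of the set at E8.5. It stood at 41.2, 57.0, 0.879, 0.0781 and 0.699 FPKM, so all 3 E10.5 libraries were below 1 FPKM. Csrp3, the muscle LIM protein (chromosome 7, 56085023 to 56104527), stood at 47.3, 82.2, 12.2, 0.133 and 0.0136 FPKM. These 2 genes had similar E8.5 levels, but in liver Csrp3 was well above 5 FPKM and Actn2 was not. Ankrd1, a stretch-responsive ankyrin repeat protein found at the sarcomere and in the nucleus (chromosome 19, 36186452 to 36194573), stood at 166, 277, 3.27, 0.984 and 0.125 FPKM. Liver was the highest of its E10.5 libraries, and none of the 3 reached 5 FPKM.

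Promoter stretches are shown for 4 members, since all 10 genes are lower in the E10.5 libraries than in the E8.5 ones but stand at different fractions of medial foregut in liver. RefSeq windows (GRCm38.p6) from 250 bases before to 50 after an annotated start were at hand for all 10 genes, 14 windows in all. The 180 bases before the start are printed 5′ to 3′ on the gene's strand, with capitals marking a CArG box (the site of serum response factor) in Actc1 and Myl3, and TTATCT, the reverse complement of the GATA-type motif AGATAA, in Tnnt2 and Ankrd1. As a fraction of medial foregut, liver stood at 3.39% for Actc1, 0.0867% for Myl3, 5.79% for Tnnt2 and 1.18% for Ankrd1. Another Tnnt2 window, from a different annotated start, has no AGATAA match. A relation of motif to liver level was not tested. The intervals are chr2:114052876-114053055 (minus strand), chr9:110763498-110763677 (plus), chr1:135836154-135836333 (plus) and chr19:36119845-36120024 (minus).
Actc1: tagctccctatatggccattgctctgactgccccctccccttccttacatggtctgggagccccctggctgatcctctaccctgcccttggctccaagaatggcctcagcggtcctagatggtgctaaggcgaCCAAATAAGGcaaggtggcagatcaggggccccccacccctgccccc
Myl3: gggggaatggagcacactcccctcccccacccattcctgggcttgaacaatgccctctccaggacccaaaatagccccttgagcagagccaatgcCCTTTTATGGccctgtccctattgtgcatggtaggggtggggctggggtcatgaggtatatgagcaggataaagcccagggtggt
Tnnt2: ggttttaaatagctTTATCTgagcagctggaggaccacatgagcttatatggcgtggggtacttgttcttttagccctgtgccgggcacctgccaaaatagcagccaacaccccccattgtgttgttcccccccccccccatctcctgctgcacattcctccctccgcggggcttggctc
Ankrd1: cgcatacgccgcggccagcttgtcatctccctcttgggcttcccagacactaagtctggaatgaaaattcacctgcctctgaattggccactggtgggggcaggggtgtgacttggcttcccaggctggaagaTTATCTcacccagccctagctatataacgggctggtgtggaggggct

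A CArG box on either strand was found in the windows of these 2 of the 10 genes, and of 1.81% of 27025 genes. AGATAA was found in 2 of 10 and 12.7% of genes, TATAAA in 2 of 10 (Actc1 and Myh6, both after the start) and 15.7%, and AGGTGT, a T-box type motif, in 2 of 10 (Tnni1 and Csrp3) and 15.7%. The MEF2 motif and CAAGTG were found in 0 of 10 and in 3.70% and 15.4% of genes. No searched motif was shared by more than 2 of the 10 genes. Srf, the gene of serum response factor, named for the CArG box, stood at 28.6, 43.9, 15.02, 12.01 and 18.5 FPKM. Gata4, named for AGATAA, stood at 46.6, 78.0, 19.7, 11.2 and 13.5 FPKM. Other GATA genes did not all share that order. Gata5 stood at 31.8, 60.1, 6.15, 4.81 and 1.76 FPKM, but Gata6 at 25.7, 41.1, 27.0, 33.6 and 11.2, with liver and ventral pancreas above foregut. A match is a string of letters and not a site of binding, and the annotated start need not be the one used in these tissues. The Myl4 window lies at the start of the annotated gene, of which its locus covers 22.3%.

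Differences between libraries were taken as log2(FPKM + 1), a scale on which changes of low genes come out too small. A gene was called higher where it differed by at least 2 (4 times in FPKM + 1) and had 5 FPKM or more in the higher library. The first question was how the 2 foregut libraries of the same day differ. All 10 genes were higher in medial foregut, by 1.28 times (Myh6) to 2.02 times (Tnnt2) in FPKM with a median of 1.70 times, and none was called higher, against 0.00808% of all named loci. The median ratio of medial foregut to foregut over the 8120 named loci at 5 FPKM in either library was 0.998, and 9.94% of them had a ratio of at least 1.28. No replicate shows how far 2 libraries of the same tissue would differ.

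The whole set was lower in each E10.5 library than in both E8.5 libraries. No tissue was sampled at both days, so day and tissue cannot be told apart. In medial foregut all 10 genes were called higher than in liver (3.02% of all named loci), ventral pancreas (2.26%) and dorsal pancreas (1.86%), with median differences of 4.89, 6.90 and 7.91 on the log2 scale. In foregut 9 genes were called higher than in liver (2.89% of named loci), Csrp3 falling short at a difference of 1.87 (2.05 and called with each library rescaled to the same total), and all 10 were called higher than in ventral (1.9%) and dorsal pancreas (1.41%). These comparisons share the foregut libraries or the E10.5 libraries. In 9 of the 10 genes both E8.5 libraries were called higher than each E10.5 library, as were 0.808% of named loci. Over all named loci the median difference of medial foregut from liver was 0.08, from ventral pancreas -0.12 and from dorsal pancreas -0.11.

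The second set of comparisons asked whether the E10.5 libraries differ in these genes. Liver was called higher than ventral pancreas for 6 genes (1.24% of named loci), with a median difference of 3.05, and higher than dorsal pancreas for 7 (2.12%), with a median of 3.20. Actc1, Tnnt2, Myl4, Tnni1, Myh6 and Csrp3 were called against both, as were 1.04% of named loci, and Myh7 against dorsal pancreas. Myl3, Actn2 and Ankrd1 were under 5 FPKM in all 3 E10.5 libraries as deposited and could not be called. With a pseudocount of 5 FPKM, 4 genes were called against dorsal pancreas in place of 7. With each library rescaled to the same total 8 were, Ankrd1 among them, and Myl3 was then called higher in ventral pancreas than in liver. In ventral pancreas 1 gene, Myh7, was called higher than in dorsal pancreas (0.913% of named loci), and 3 (Tnnt2, Myl3 and Myh7) were with each library rescaled to the same total. No member was called higher in liver than in each of the other 4 libraries, against 0.824% of named loci, since both E8.5 libraries lay above it.

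The levels in liver were not a uniform fraction of those in medial foregut. Csrp3 stood at 14.9% of its medial foregut FPKM, Tnni1 at 12.3%, Myl4 at 9.33%, Tnnt2 at 5.79% and Actc1 at 3.39%. Myh6 stood at 2.93%, Actn2 at 1.54%, Myh7 at 1.496%, Ankrd1 at 1.18% and Myl3 at 0.0867%. A single scaling of a library would change all 10 by the same factor, so the spread between the genes does not depend on scaling. Its low end rests on Myl3, which with Actn2 was under 1 FPKM in liver, and without Myl3 the lowest value was 1.18%. The order of the genes was not the same in ventral pancreas, where Myl3 (1.40%) and Myh7 (1.20%) had the largest fractions and Actc1 the smallest (0.00946%), or in dorsal pancreas, where Actn2 (1.23%) and Tnni1 (0.965%) did and Myh6 (0.0162%) and Csrp3 (0.0166%) were lowest. Most of these pancreatic fractions rest on levels under 1 FPKM, and depth in reads is unknown.

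**Figure D2:**
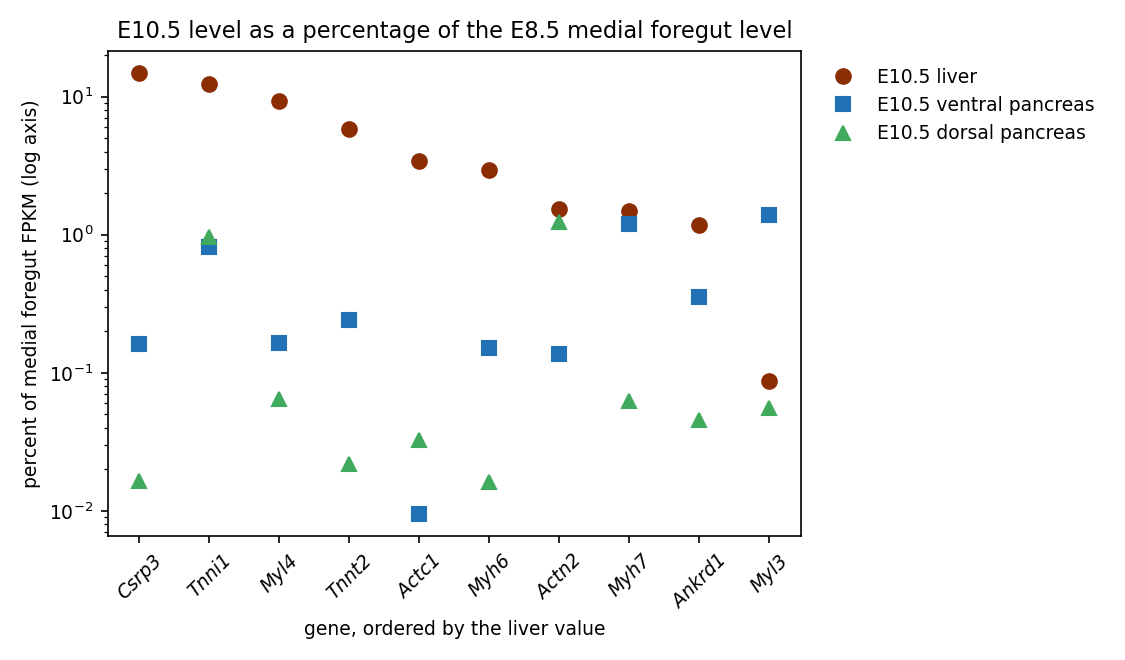
FPKM in each E10.5 library as a percentage of the medial foregut FPKM (log axis), for the 10 genes ordered by the liver value, 1 library per point. In liver the values run from 14.9% for Csrp3 to 0.0867% for Myl3, and only for Myl3 does a pancreatic library lie above liver.

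The make-up of the summed signal shifted with these fractions. Actc1 held 33.2% of the summed FPKM of the 10 genes in foregut, 30.6% in medial foregut and 19.0% in liver, while Myl4 held 16.4%, 17.7% and 30.3% and Tnni1 7.43%, 7.87% and 17.7%. Myh7 held 10.9%, 8.63% and 2.36% in the same libraries and 32.7% in ventral pancreas. The make-up of the 2 E8.5 libraries was close, and the gene whose share differed most between them was Tnnt2, at 19.6% and 23.5%.

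**Figure D3:**
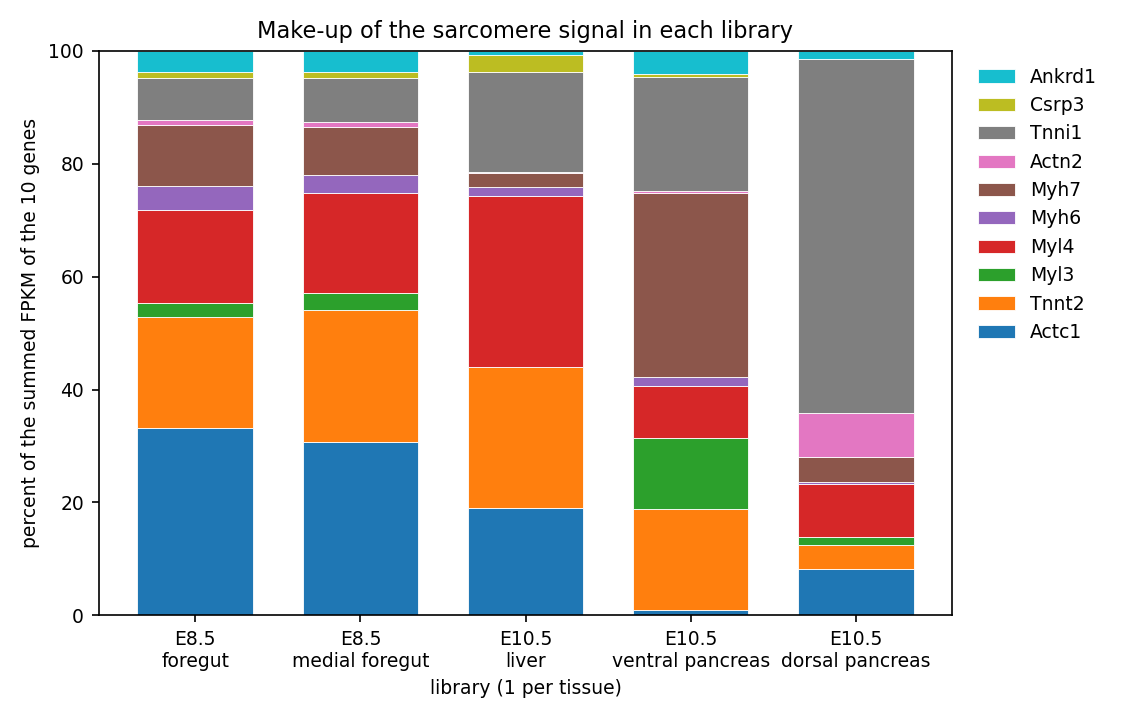
Share of each gene in the summed FPKM of the 10 genes in each library (bars sum to 100%), 1 library per bar. Myl4 (30.3%) and Tnni1 (17.7%) take a larger share in liver than in either E8.5 library, and the pancreatic bars rest on sums of only 23.7 and 9.09 FPKM.

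Other sarcomere genes were described from a list of 39, of which 24 had a locus of their own and 23 reached a mean of 1 FPKM over the 5 libraries. Genes such as Myl2 passed that mean through their E8.5 levels alone, which favours a call of higher in medial foregut. The share of named loci has no such filter, here and for the genes called measured in later lists. Medial foregut was called higher than liver for 22 of the 23 (3.02% of named loci), with a median difference of 4.06. The exception was Tpm1, a tropomyosin gene also used outside muscle, at 1183 FPKM in medial foregut and 548 in liver. Liver was called higher than both pancreatic libraries for 4 of the 23 (1.04% of named loci). The median fraction of the medial foregut level found in liver was 4.81%, beside 3.16% for the 10 genes. Myl7, the atrial regulatory light chain, stood at 1049, 1959, 93.9, 5.56 and 8.55 FPKM. Its ventricular counterpart Myl2 stood at 30.9, 52.4 and 0.692 FPKM in the first 3 and was listed at 0 in both pancreatic libraries. The Myl7 to Myl2 ratio was 33.9 in foregut and 37.4 in medial foregut. Skeletal alpha-actin, Acta1, went from 85.6 FPKM in medial foregut to 0.191 in liver, 0.223% of its level, so that Myl3, Acta1 and Myl2 all stood under 1 FPKM in liver while Actc1, Myl4 and Myl7 stood at 77.9 or higher. Nebl, Smyd1 and Fhl2 stood at 0.731, 2.12 and 2.61 FPKM in liver against 75.2, 89.1 and 41.1 in medial foregut.

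**Figure D4:**
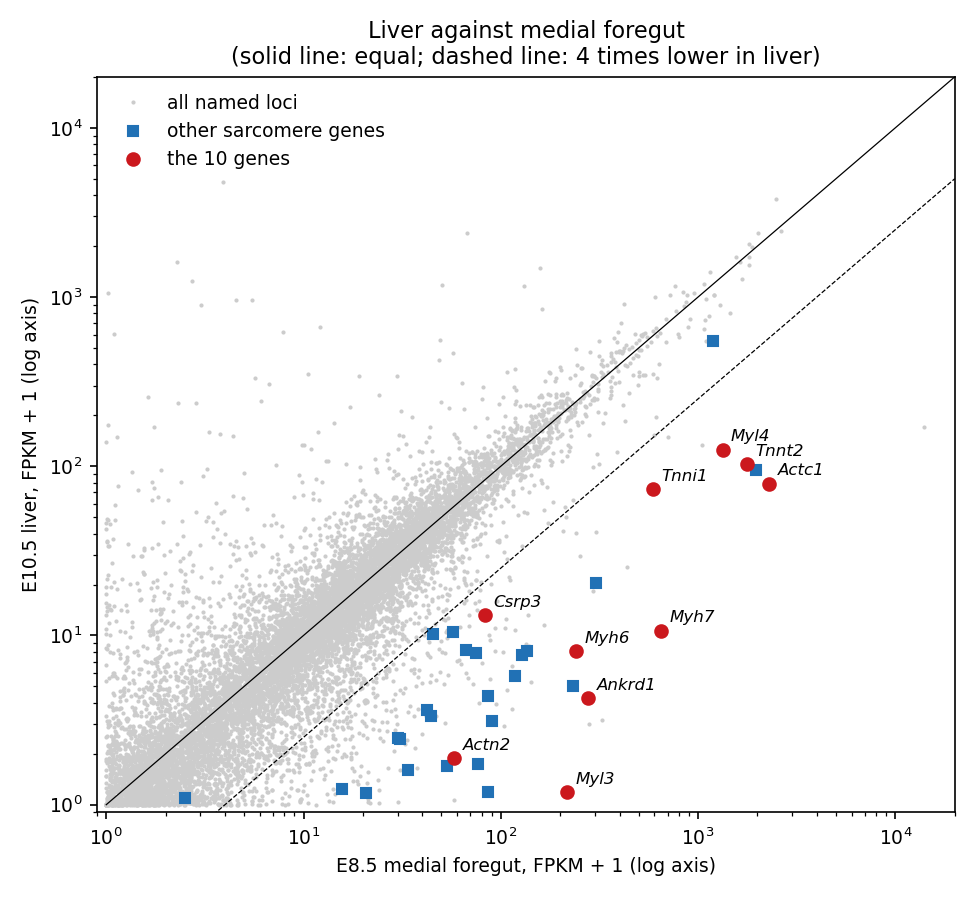
FPKM + 1 in E10.5 liver against E8.5 medial foregut on log axes for all 12375 named loci (grey), 24 other sarcomere genes (blue squares) and the 10 genes (red circles), 1 library per axis. All 10 genes lie below the dashed line that marks a 4 times lower value in liver, and Myl3 lies near the floor at 0.186 FPKM in liver.

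Likeness to the set was measured as the root mean square difference between centred log2(FPKM + 1) profiles over the 5 libraries, among 580 other loci with a maximum of 5 FPKM and a range of 3. With only 5 points, which share the same 5 libraries, this is a description. Within the set, Myh6 was closest to the mean of the other 9 (0.22, Pearson's r 0.998) and Actc1 (1.65, r 0.979) and Myl3 (1.59, r 0.885) were farthest. The 12 most alike loci outside the set were, in order, Mybpc3, Myl7, Ttn, Unc45b, Tnnc1, Hspb7, Tbx20, Cnn1, Acta2, Asb2, Nebl and Myl2. Mybpc3, cardiac myosin-binding protein C, had a distance of 0.37 and stood at 86.2, 135, 7.14, 0.0572 and 0.0176 FPKM. Tnnc1, the calcium-binding troponin subunit of heart and slow muscle, had a distance of 0.60 and stood at 171, 302, 19.3, 2.23 and 2.33 FPKM. The titin locus, Ttn, which covers 3.6% of the annotated span, had a distance of 0.51, and such a likeness says nothing of shared function or control. Ranking by Pearson's r kept 6 of these 12.

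Cardiac regulators and markers of other muscle were read beside the set. Of 21 cardiac transcription factors, 15 were called higher in medial foregut than in liver (3.02% of named loci) and 1, Shox2, lower (2.51%). Higher in liver than in both pancreatic libraries were 0 of the 21, near the share of 1.04% of named loci. Nkx2-5, a homeobox factor of heart muscle that the sinus venosus lacks, stood at 10.3, 20.7, 0.0191, 0.0358 and 4.77 FPKM at a locus 269% as wide as the annotated gene, and was thus near 0 in liver where Actc1, Tnnt2 and Myl4 were not. Tbx5, which marks atria and the inflow tract, stood at 27.5, 43.5, 4.87, 2.88 and 0.0657 FPKM. Shox2, a homeobox gene of the sinus venosus, went the other way, at 1.42, 0.736, 10.8, 7.27 and 0.503 FPKM. Isl1, of the same list of factors, did not, at 5.88, 17.8, 0.318, 13.3 and 104 FPKM, with liver the lowest library. Nr2f2, listed as a chamber marker, was highest in dorsal pancreas, at 1.43, 1.43, 2.68, 5.99 and 8.36 FPKM, at a locus 464% as wide as the annotated gene. Tbx18, a T-box gene of sinus venosus and septum transversum, stood at 0.834, 0.704, 10.45, 1.78 and 0.108 FPKM. Of 8 measured markers of septum transversum, mesothelium and epicardium, 3 (Wt1, Upk3b and Tbx18) were called higher in liver than in medial foregut (2.51% of named loci) and 3 (Podxl, Krt19 and Aldh1a2) lower (3.02%). The summed level of the 9 found, 265, 342, 51.4, 66.3 and 62.7 FPKM, was mostly that of Podxl at E8.5 (202 and 293 FPKM), while Wt1 stood at 0.697 and 0.835 FPKM at E8.5 and 6.40 in liver, and Upk3b at 0.773, 0.816 and 8.84. The part of these cells in the liver levels of the set was not tested.

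Of 11 smooth muscle markers, 10 were measured, and 7 were called higher in medial foregut than in liver (3.02% of named loci). Acta2 and Tagln, 2 of the 10, were called higher in liver than in both pancreatic libraries (1.04%). The summed FPKM of all 11 was 858, 1417, 195, 36.0 and 40.9 in the order of the libraries, and Acta2 held most of it in the first 3. Acta2, smooth muscle actin, which early heart muscle also expresses, stood at 635, 1042, 133, 2.78 and 0.923 FPKM, at a locus 442% as wide as the annotated gene, so that reads of neighbours may be counted in it. No 100-base window of the longest Actc1 transcript occurs unchanged in Acta2 or Acta1. Of 18 skeletal muscle markers 7 were found and 5 measured, and the 7 had a summed FPKM of 36.3 and 45.5 at E8.5 and between 5.35 and 11.4 at E10.5. The defining factors Myod1 and Myog were on the list but not among the 7 found, so no level is given for them. Pax3 stood at 11.8 FPKM in foregut and 3.11 in medial foregut, the opposite order to the 10 genes. Endothelial markers, 10 measured, had summed levels of 135 and 171 FPKM at E8.5 and 137, 126 and 74.6 at E10.5. Sox17 alone held 65.9 FPKM of the ventral pancreas sum, against 3.20 or less in the other libraries. Cdh5 and Tie1 stood at 15.8 and 13.9 FPKM in liver and 1.37 and 1.54 in ventral pancreas. Flt1 went the other way, at 2.86 FPKM in liver and 14.3 in ventral pancreas, and was not called. Of the 10, 5 were called higher in liver than in ventral pancreas (1.24% of named loci) and 1, Sox17, lower. None was called higher in medial foregut than in liver (3.02%). Of 13 measured genes of calcium handling, channels and energy supply, 7 were called higher in medial foregut than in liver (3.02% of named loci). Higher in liver than in both pancreatic libraries were 0 of them (1.04%). With shares this small, a count of 0 does not set a list apart from other loci. The part of these cell types in the levels of the set was not tested.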

How the data were processed

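Poly(A) RNA of 5 mouse tissues was sequenced as 1 paired-end library each, per the labels' protocols, with no strand marking described. The authors deposited 1 table of FPKM values, per the file headers. Named in the submitters' processing notes, with no role or order, are Cufflinks 1.3.0, TopHat 1.33 and mm9. The sources used here do not give the scaling between libraries. The 1678 loci without a gene name were left out. Columns were assigned by the column name that each sample's label repeats. Depth in reads is unknown, so no interval or floor is given, and an exact 0 is reported as listed at 0.

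From these values differences of log2(FPKM + 1), calls (size 2 and 5 FPKM), medians, ratios and shares were computed with Python 3.11.15 and pandas 2.3.3, and the size rule was tested on simulated data. Spans and strands came from GENCODE M21 and promoter windows from RefSeq, both on GRCm38, so no coordinate was moved between builds. Loci under 30% of the annotated span, or on its other strand, were noted. Transcript identity used Biopython 1.88, with transcripts in place of the planned proteins. The members and lists were chosen with earlier results of these data known. Named genes are the members, the 12 most alike loci, up to 6 genes of each list with the largest difference of liver from the mean of the other 4 libraries, and the genes of the ratios. Some genes this rule gives are not reported here. Outside this rule, Tpm1, Tagln, Epcam, Foxa2, Srf, Gata4, Gata5 and Gata6 were chosen after their values were seen. Alternatives were other pseudocounts, scalings, filters and sizes.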

Additional observations from a re-analysis of the deposited data

How the results depend on the processing

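Of 640 differences of single members recomputed under 8 alternatives, 620 kept their direction and their side of the size rule, 13 fell short of it, 7 passed it anew, and 0 changed sign. Only the rescalings could have changed a sign, since another pseudocount, size or filter keeps the order of the libraries. A pseudocount of 5 FPKM lowered the members called higher in liver than in dorsal pancreas from 7 to 4 and those called higher in ventral than in dorsal pancreas from 1 to 0, and it took the median differences of liver from ventral and dorsal pancreas to 1.46 and 1.61, under the size of 2. This follows from its construction, since it shrinks low values. Rescaling to a total of 1000000 raised the ventral over dorsal count to 3, and it moved the median difference over all named loci between liver and dorsal pancreas from -0.16 to -0.36. As deposited the libraries sum to between 437581 (dorsal pancreas) and 506529 FPKM (medial foregut). Every value therefore also rose against the fixed floor of 5 FPKM and pseudocount of 1 FPKM, so the added calls are not an effect of scaling between libraries alone. A size of 3 gave 0 for ventral over dorsal pancreas, and a size of 1 gave 1 member, Tnnt2, higher in medial foregut than in foregut. The other counts and medians, also without Myl4 (the one member at a locus under 30% of the annotated span), stayed within 1.5 times or on the same side. Of the 12 most alike loci, Pearson's r kept 6, a pseudocount of 0.1 FPKM kept 9, and leaving out each member in turn kept 11 or 12. The Myl4 to Myl3 ratio has no value without the Myl4 locus. No paired analysis was possible because there was 1 library per tissue, and for the same reason no replicate could be left out.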

Other observations

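Loci that carry several joined names were left out of the gene lists, and some of them hold sarcomere genes. The locus of Tnni3, the cardiac troponin I, joined with Tnnt1 and 6030429G01Rik stood, from foregut through medial foregut and liver to ventral and dorsal pancreas, at 37.2, 68.2, 17.3, 8.49 and 5.42 FPKM, with no split by gene. Its liver value was 25.3% of that of medial foregut, a difference of 1.92 on the log2(FPKM + 1) scale, short of the size of 2 that all 10 members passed. The ratio of Tnni1 to Tnni3 was therefore not computed. The locus joining Myom1, a myosin-binding protein of the M-line, with 2900073G15Rik stood at 40.3, 62.1, 5.83, 5.72 and 2.84 FPKM. Tpm3, joined with Nup210l, varied little, at 444, 484, 456, 408 and 371 FPKM.

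By Pearson's r, the locus most like the mean profile of the 10 genes was Fbxo32, a muscle ubiquitin ligase gene (r 0.99954 over 5 libraries), at 25.8, 35.2, 5.00, 1.61 and 0.956 FPKM. Wnt2, a secreted signalling ligand, came next at r 0.998 and stood at 16.0, 26.7, 2.60, 0.0789 and 0.00611 FPKM. Both were named by this ranking after the values were seen.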
